A study of Mus musculus with 57 samples.

Results

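The genes described here are the matrix metalloproteinases (MMP), the ADAMTS proteases, the ADAMTS-like proteins (ADAMTSL) and the tissue inhibitors of metalloproteinases (TIMP) of mouse bone marrow. They were taken by name from the deposited count table: every gene with an Ensembl identifier and a symbol of 1 of these 4 families, with no measured value used in the choice. This gave 51 genes of 56332 in the table, made up of 23 MMP, 19 ADAMTS, 5 ADAMTSL and 4 TIMP genes. Mmp1a and Mmp1b had 0 counts in all 57 libraries, and Mmp7, Mmp10 and Adamts19 had fewer than 10 counts over all of them.

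Marrow was taken from male C57BL/6 mice, 8 weeks old at treatment, after 4 weeks on anti-PAPP-A antibody or on the treatment labelled control. PAPP-A is a secreted metalloprotease of the insulin-like growth factor pathway. The 6 sorted populations were MSC (mesenchymal stromal cells), the stem cells HSC, the lymphoid progenitors CLP, the granulocyte and monocyte progenitors GMP, the megakaryocyte and erythroid progenitors MEP, and Myeloid cells, and unsorted whole marrow is called WBM. Mice were pooled, with 10 pools per treatment and no pool size in the labels, which also put each library in batch A, B or C. Control and treated libraries numbered 6 and 4 for MSC, 3 and 4 for HSC, 4 and 4 each for CLP, GMP and MEP, and 6 and 6 for Myeloid, and WBM had 4 control libraries only. All groups share strain and sex, and no other allele or agent is named. The treatment p-values measure the spread between mouse pools. Across populations, libraries of the same pool counted as separate samples, so those p-values measure the spread between libraries. In such bulk samples fewer cells of a type and less RNA per cell cannot be told apart.

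MMPs are zinc-dependent endopeptidases that are made as inactive proenzymes and cut collagens and other matrix proteins, as well as cytokines and cell surface proteins. Some are secreted (the collagenases Mmp8 and Mmp13, the gelatinases Mmp2 and Mmp9), and others are held at the cell surface by a transmembrane segment or a lipid anchor (Mmp14, Mmp25). ADAMTS proteases are secreted enzymes with thrombospondin repeats. They include aggrecanases, which cut proteoglycans, procollagen N-proteinases, which trim new collagen, and Adamts13, which cuts von Willebrand factor. ADAMTSL proteins share the thrombospondin repeats but lack the protease domain, and TIMPs bind the active site of metalloproteinases and block it. In marrow, metalloproteinases are best known for matrix turnover by stromal and bone cells and for the granule enzymes that neutrophils carry.

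Depth differed between libraries. Total counts ran from 107412 (treated HSC pool 6) to 125537299 (a Myeloid library), and the medians ran from 4116362 in CLP to 52597739 in Myeloid. Control MSC pool 7 (321860 counts) and treated MSC pool 8 (499300 counts) were also shallow. Batch A holds no other treated MSC library than pool 8. Levels are given as CPM, the counts scaled to a library total of 1000000, on a scale shared by the 31 control libraries. MSC and Myeloid libraries carried the stromal and the neutrophil markers. Summed over 8 stromal markers (Lepr, Cxcl12 and others), control MSC libraries held 31880 to 59080 CPM and no other sorted library more than 83.24. Summed over 10 neutrophil markers, Myeloid libraries held 157200 to 216400 CPM, and MSC libraries 1295 to 8200. MSC libraries also held 7752 to 26550 CPM of osteoblast markers. Monocyte and macrophage markers summed to 1852 to 4787 CPM in MSC and 784.9 to 2122 CPM in Myeloid. In CLP the lymphoid progenitor markers summed to 1582 to 2225 CPM and the neutrophil markers to 5491 to 9776 CPM. These sums do not show how pure a population was.

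The promoters of 4 members that the results turn on are shown for orientation, because Mmp13 and Mmp8 are collagenases of 1 gene cluster with opposite cell types, and Mmp14 and Timp1 are the membrane protease and the inhibitor with the smallest p-values in treated MSC. Each is the 250 bases before the transcription start in RefSeq (GRCm38.p6, plus strand, 5′ to 3′), with short motifs in capitals. The windows are chr9:7272264-7272513 for Mmp13, chr9:7558179-7558428 for Mmp8, chr14:54431348-54431597 for Mmp14 and chrX:20869916-20870165 for Timp1.
Mmp13: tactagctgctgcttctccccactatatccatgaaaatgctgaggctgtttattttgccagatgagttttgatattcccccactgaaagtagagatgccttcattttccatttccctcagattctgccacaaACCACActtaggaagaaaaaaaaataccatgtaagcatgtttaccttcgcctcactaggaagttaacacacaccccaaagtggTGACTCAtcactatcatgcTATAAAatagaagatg
Mmp8: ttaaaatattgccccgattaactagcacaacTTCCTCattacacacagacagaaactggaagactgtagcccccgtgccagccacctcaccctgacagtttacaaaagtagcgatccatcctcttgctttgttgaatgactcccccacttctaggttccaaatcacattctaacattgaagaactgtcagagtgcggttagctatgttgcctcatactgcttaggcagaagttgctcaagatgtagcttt
Mmp14: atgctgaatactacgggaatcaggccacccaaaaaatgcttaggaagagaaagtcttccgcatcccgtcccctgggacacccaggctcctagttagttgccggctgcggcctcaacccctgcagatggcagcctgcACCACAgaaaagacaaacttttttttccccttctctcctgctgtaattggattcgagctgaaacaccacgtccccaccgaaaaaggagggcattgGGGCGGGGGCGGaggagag
Timp1: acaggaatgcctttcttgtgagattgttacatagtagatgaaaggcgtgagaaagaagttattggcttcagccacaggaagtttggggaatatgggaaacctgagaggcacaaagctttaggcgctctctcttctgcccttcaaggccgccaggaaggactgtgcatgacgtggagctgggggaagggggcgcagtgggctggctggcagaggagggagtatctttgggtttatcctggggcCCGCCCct

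The capitals in Mmp13 mark an AP-1 motif (TGANTCA, positions -35 to -29 from the start), a RUNX motif (TGTGGT, on the minus strand, -118 to -113) and a TATA motif (TATAAA, -16 to -11). Mmp14 held the RUNX motif on the minus strand and, side by side, a pair of GC boxes (GGGCGG), and Timp1 held a GC box on the minus strand. Mmp8 held the ETS motif GAGGAA, on the minus strand at -219 to -214, and neither the AP-1 nor the RUNX letters. Both strands were searched, and the motifs do not overlap each other in these windows. Of all 32851 promoters of the same length, 6.75% held the AP-1 letters, 14.0% the RUNX, 12.4% the TATA, 32.7% the GC box and 23.3% the ETS letters. Among the 36 members with a promoter entry, 8 held AP-1 letters (Mmp1a, Mmp1b, Mmp3, Mmp7, Mmp10, Mmp12, Mmp13 and Mmp20), and all 8 lie in the Mmp cluster of chromosome 9. GC boxes were in 20 members, mostly ADAMTS, ADAMTSL and TIMP genes. A match is a string of letters and was not tested for binding.

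In control marrow most of these genes had their highest level in MSC. Among the sorted populations, 31 of the 51 genes had their highest mean in MSC, 8 in Myeloid, and 3 each in HSC, CLP and MEP, with 1 in GMP. All 4 TIMP and all 5 ADAMTSL genes had their highest mean in MSC, as did 13 of 19 ADAMTS and 9 of 23 MMP genes. These counts include genes near 0, for which the order of means says little. Examples are Adamtsl2 (0.1693 CPM in MSC and 0.1522 CPM in CLP) and Adamts16 (0.1496 CPM in MSC). In MSC 24 genes reached a mean of 10 CPM, against 8 in Myeloid and 3 or 4 in each progenitor population. Of the 39 members with enough counts to be tested, 26 peaked in MSC and 6 in Myeloid, where 28.9% and 25.8% of all tested genes did.

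**Figure D1:**
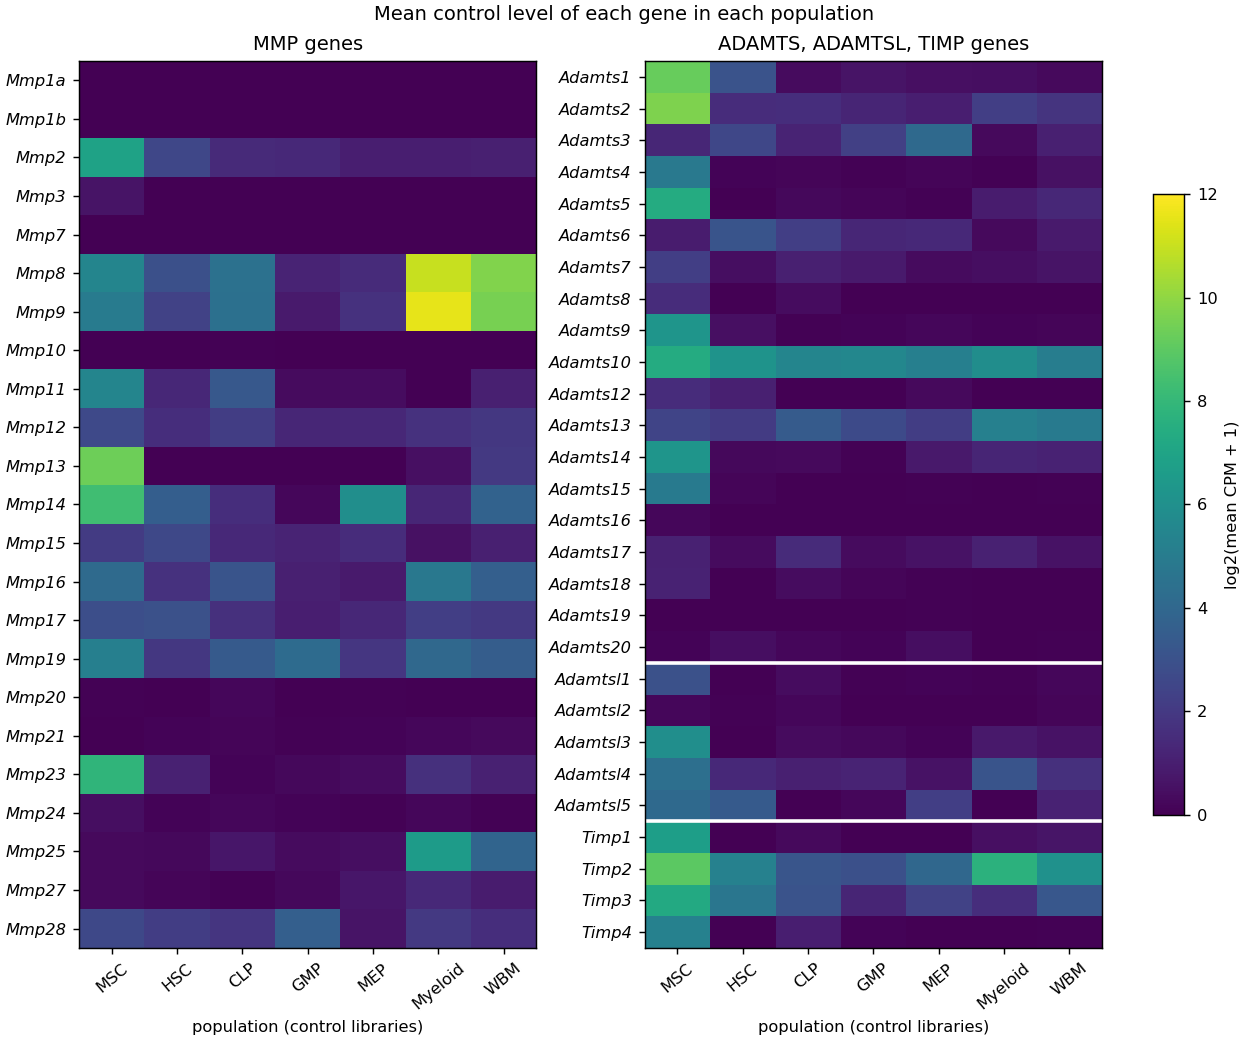
Mean level of each of the 51 genes in the control libraries of each population, as log2(mean CPM + 1), with MMP genes on the left and, separated by white lines, ADAMTS, ADAMTSL and TIMP genes on the right. The MSC column is the brightest for most genes, while Mmp8, Mmp9 and Mmp25 are brightest in Myeloid.

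Each sorted population was tested against the mean of the other 5 with edgeR's quasi-likelihood test on all 31 control libraries, with batch as a term and a Benjamini-Hochberg adjusted p of 0.05 as threshold. In MSC 28 of the 39 tested members were higher and 0 lower, where 28.7% of all 21384 tested genes were higher and 20.1% lower. The edgeR test at an unadjusted p under 0.05 counted 30 of 39 members in MSC in either direction, and 11495 of 21384 genes. The median difference of the members was 4.18 on the log2 scale, against 0.14 for all genes. With populations at 0 counts set to 3 counts over the group, the medians of the log2 ratios of means were 3.99 and 0.11. In 19 members every MSC library was above every one of the 21 other sorted control libraries, which held for 7.03% of all tested genes.

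Mmp13, the collagenase of cartilage and bone, was the MMP with the highest level per length in MSC, at 242.7 ± 81.2 CPM per kilobase of exon (SD, n = 6). In the 6 control MSC libraries it ran from 374.7 to 928 CPM with a median of 642.1. HSC, CLP and GMP libraries had 0 counts, and 1 of 4 MEP libraries had 0.02325 CPM. Set against 3 counts over all libraries of a group, Mmp13 in MSC was at least 7150-fold higher than in HSC, at least 3780-fold higher than in CLP and at least 17000-fold higher than in GMP. Myeloid libraries held 0 to 1.281 CPM of Mmp13, and WBM 0.901 to 6.029 CPM.

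Mmp14, the membrane-type collagenase that also activates proMmp2 on the cell surface, was high in MSC and also present in MEP. In MSC it ran from 166.3 to 461.7 CPM (median 311.7), and MSC did not overlap any other population. In MEP it was 85.53, 45.34, 53.44 and 54.31 CPM, above every library of HSC (13.76, 15.1 and 4.417), CLP (0 to 2.859), GMP (0 to 0.4712) and Myeloid (0.1266 to 2.689). Mmp14 was higher than the mean of the other sorted populations by 6.44 in MSC (log2, SE 0.350, edgeR adjusted p = 2.78e-15) and by 4.11 in MEP (SE 0.384, adjusted p = 6.13e-09). It was lower in GMP (log2 -6.09, adjusted p = 2.36e-07) and in Myeloid (log2 -3.81, adjusted p = 1.38e-04).

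Other MMPs of stroma were secreted or small membrane enzymes. Mmp23, a membrane protease without the usual haemopexin domain, ran from 141.7 to 349.4 CPM in MSC (median 204.9) and stayed under 4 CPM in every other sorted library (highest 3.356). Mmp2, the gelatinase, ran from 42.04 to 197.1 CPM in MSC and reached 6.564 CPM in HSC at most. Mmp11, stromelysin 3, ran from 34.3 to 61.97 CPM in MSC, and CLP was next with 1.918, 8.576, 8.157 and 16.3 CPM. Mmp11 was higher in MSC (log2 7.02, SE 0.409, edgeR adjusted p = 4.36e-15) and also in CLP (3.86, SE 0.507, adjusted p = 4.21e-06). Mmp11 shares 155 exonic bases with Chchd10 on the opposite strand. The strand setting of the counting is not given in the sources used here, so reads of such pairs may be hard to separate.

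**Figure D2:**
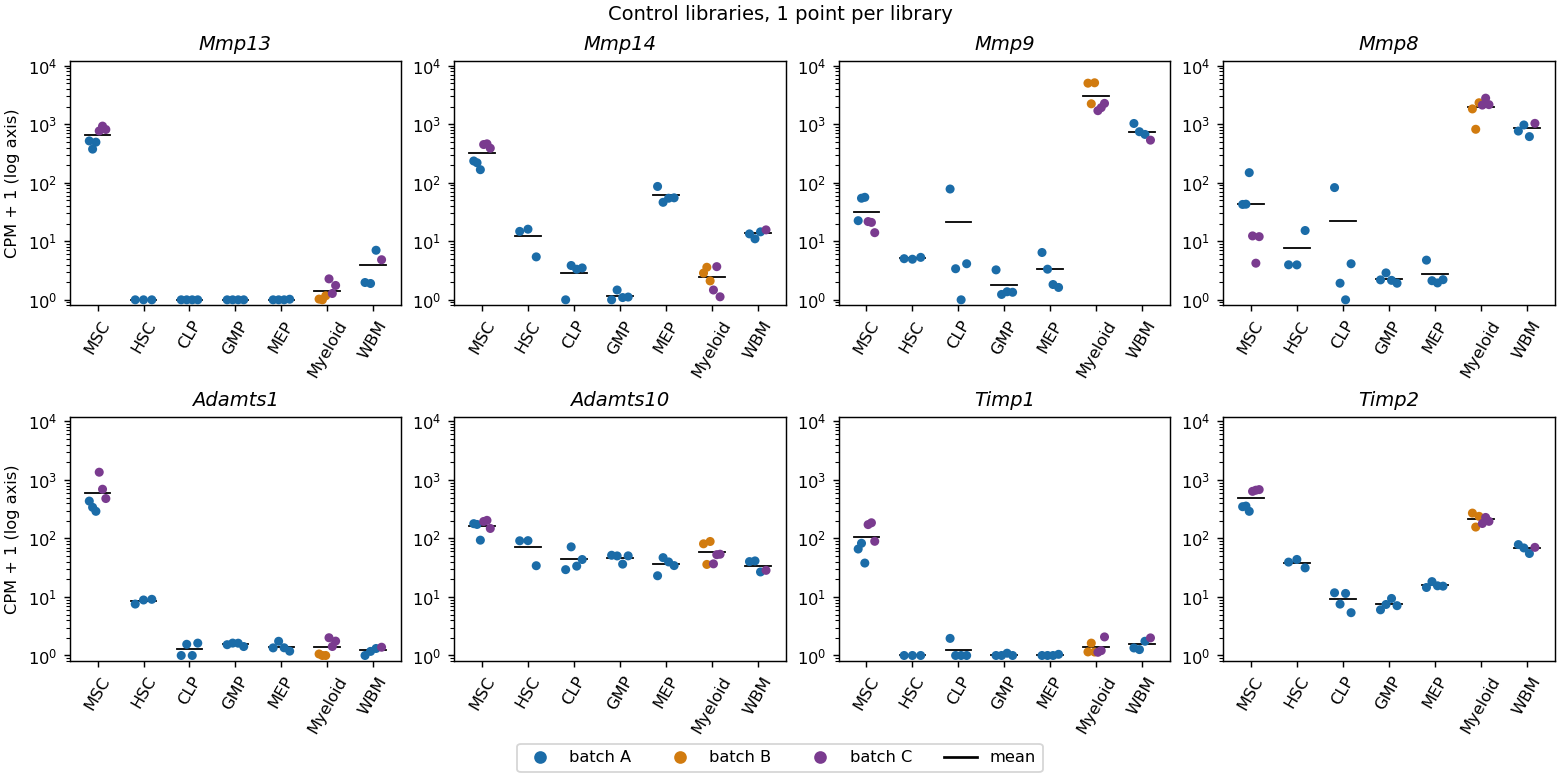
Level of 8 genes in each control library (1 point per library, coloured by batch, with the population mean as a line) on a log axis of CPM + 1. Mmp13 and Timp1 are near 0 in the other sorted populations, Adamts1 is next highest in HSC, Mmp9 and Mmp8 are highest in Myeloid and WBM with 1 CLP library far above the other 3, and Adamts10 is spread over all populations.

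Several ADAMTS genes whose enzymes cut proteoglycans were highest in MSC. Adamts1 ran from 289.6 to 1353 CPM in MSC (median 456.6), and its next highest population was HSC, with 6.564, 7.878 and 8.114 CPM. HSC libraries did not overlap CLP, GMP, MEP or Myeloid libraries, none of which exceeded 1.011 CPM. Adamts1 was higher in MSC (log2 8.97, SE 0.298, edgeR adjusted p = 3.15e-21) and in HSC (2.28, SE 0.374, adjusted p = 3.46e-05). Adamts5, an aggrecanase, ran from 110.9 to 288.5 CPM in MSC, had 0 counts in HSC, and was at least 1850-fold higher in MSC than in HSC. Adamts4, another aggrecanase, ran from 7.807 to 53.9 CPM in MSC and reached 0.4611 CPM at most in another sorted library. Adamts9 (55.96 to 105 CPM) and Adamts15 (13.09 to 48.04 CPM), further members of the proteoglycan-cutting group, were also above every other sorted library in MSC. Of the same kind, Adamts8 averaged 1.83 CPM in MSC, all of it from a single library of batch C (10.98 CPM), with 0 in the other control MSC libraries. Adamts20 was under 1 CPM in every population, with its highest mean in MEP (0.3402 CPM).

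The procollagen N-proteinases split between populations. Adamts2 was the member with the highest CPM in MSC, from 465.5 to 1336 (median 754), with at most 8.223 CPM elsewhere (log2 8.25, SE 0.260, edgeR adjusted p = 3.99e-22). Adamts14 ran from 49.29 to 115.9 CPM in MSC and was also higher there (log2 7.95, adjusted p = 1.02e-14). Adamts3, the third of this group, was a MEP gene: 18.12, 17.95, 11.68 and 17.64 CPM in MEP against 5.991 CPM or less in every other sorted library. Its MSC libraries ran from 0 to 5.989 CPM. Adamts3 in MEP was 3.60 above the mean of the other sorted populations (log2, SE 0.708, edgeR adjusted p = 2.30e-04).

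Adamts10, a protease associated with fibrillin microfibrils, was found in every library. Its means were 164.4 CPM in MSC, 71.35 in HSC, 57.16 in Myeloid, 46.16 in GMP, 43.59 in CLP and 35.02 in MEP, and from HSC downwards the ranges of neighbours overlapped. MSC (92.41 to 202.6 CPM) lay above HSC (33.18 to 90.68). Adamts10 was higher in MSC (log2 1.81, SE 0.222, edgeR adjusted p = 3.15e-08). In MEP it was lower (log2 -0.88, adjusted p = 0.0190), a call that was lost without control MEP pool 1 (-0.71, adjusted p = 0.108) or pool 7 (-0.86, adjusted p = 0.0584), with total counts as the scale (-0.84, adjusted p = 0.0695) and with no low-count filter (-0.68, adjusted p = 0.125).

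Of the ADAMTSL genes, Adamtsl3 had 46.26 to 67.18 CPM in MSC and under 1 CPM on average elsewhere, and Adamtsl4, linked to microfibrils, 6.161 to 32.15 CPM. Adamtsl5 was shared by MSC (7.206 to 23.8 CPM), HSC (mean 9.478 CPM) and MEP (mean 3.748 CPM). Adamtsl5 was higher in each of the 3 against the other sorted populations (log2 5.58 in MSC, 5.06 in HSC and 3.45 in MEP, edgeR adjusted p = 2.41e-11, 2.50e-08 and 8.26e-06). In Myeloid it had 0 counts, and MSC was at least 1340-fold higher.

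The 4 inhibitors were all higher in MSC, and differed in how far they spread beyond it. Timp1, the inducible soluble inhibitor, ran from 36.96 to 184.2 CPM in MSC (median 85.0), had 0 counts in HSC and at most 1.076 CPM in another sorted library. Timp4 ran from 6.161 to 63.46 CPM in MSC and also had 0 counts in HSC. Timp3, the inhibitor that binds matrix and blocks ADAMTS proteases as well, had 61.61 to 277.9 CPM in MSC and 24.82, 25.77 and 24.96 CPM in HSC, where it was above every CLP, GMP, MEP and Myeloid library (highest 13.16). Timp3 was higher in both (log2 4.62 in MSC and 2.21 in HSC, edgeR adjusted p = 6.17e-17 and 1.32e-06).

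Timp2, which takes part in proMmp2 activation by Mmp14, was present in every sorted population. It ran from 289.6 to 682 CPM in MSC, 155.4 to 269.9 CPM in Myeloid, 30.4 to 42.75 in HSC, 13.52 to 17.29 in MEP, 4.388 to 10.79 in CLP and 5.03 to 8.427 in GMP. Only the CLP and GMP ranges overlapped in this order. Timp2 was higher in MSC (log2 4.18, SE 0.153, edgeR adjusted p = 9.24e-21) and in Myeloid (2.28, SE 0.281, adjusted p = 1.89e-07), and lower in CLP (-2.47), GMP (-2.80) and MEP (-1.38). Within batch C, Myeloid was below MSC (log2 -1.55, adjusted p = 2.33e-04).

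In Myeloid cells 6 members were higher and 14 lower, where 14.2% of all tested genes were higher and 19.9% lower. The 6 were Mmp8, Mmp9, Mmp25, Mmp16, Adamts13 and Timp2. In 4 of them (Mmp8, Mmp9, Mmp25 and Adamts13) every Myeloid library was above every other sorted control library, which held for 5.39% of all tested genes. Batch B held Myeloid controls alone, so the tested difference rests on the Myeloid libraries of batch C.

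Mmp9, the gelatinase of neutrophil tertiary granules, was the most abundant member per length in any population, at 860.4 ± 447 CPM per kilobase in Myeloid (SD, n = 6). Myeloid libraries of batch B held 5031, 2234 and 5108 CPM of Mmp9, and those of batch C 1705, 1921 and 2271 CPM. Mmp8, the collagenase of neutrophil specific granules, held 819.3 to 2788 CPM (828.1 ± 273 CPM per kilobase), which overlaps Mmp9 per length. GMP, which give rise to neutrophils, held 0.2356 to 2.25 CPM of Mmp9 and 0.9207 to 1.885 CPM of Mmp8. The 10 neutrophil markers, among them the early granule genes Mpo and Elane, summed to 19540 to 28680 CPM in GMP. Of these markers 2 were called higher in GMP and 8 lower (median log2 -4.21), where 12.1% and 7.24% of all tested genes were. Mmp8 and Mmp9 were lower in GMP (log2 -4.88 and -5.60, edgeR adjusted p = 0.00183 and 2.20e-04) and higher in Myeloid (log2 9.91 and 9.43, adjusted p = 5.93e-06 and 1.11e-06).

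Mmp25, a lipid-anchored MMP of leukocytes, moved with batch in Myeloid cells. Batch B libraries held 237.5, 35.06 and 250.9 CPM, and the batch C libraries (7.414, 14.72 and 19.19 CPM) were all lower. Mmp16, another membrane-type MMP, went the other way in part, as batch B held 7.72, 36.9 and 4.586 CPM and batch C 44.01, 45.93 and 24.06. Mmp16 was higher in Myeloid (log2 3.07, edgeR adjusted p = 0.0144) and also in MSC (log2 1.89, adjusted p = 0.00672). Its MSC libraries (10.94 to 30.8 CPM) lay within the range of the Myeloid libraries. Adamts13 ran from 27.92 to 50.38 CPM in Myeloid, above the MSC libraries (0 to 6.937 CPM), and it was higher in Myeloid (log2 2.18, SE 0.572, edgeR adjusted p = 0.00359).

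Among the progenitors, HSC had 7 members higher and 5 lower (12.3% and 5.74% of all genes). CLP had 3 higher and 4 lower (7.43% and 5.2%), GMP 2 higher and 13 lower (12.1% and 7.24%), and MEP 3 higher and 12 lower (15.1% and 10.1%). The HSC count fell from 12 to 7 without control HSC pool 3 and to 6 without pool 5, of 3 libraries. The share of all genes called in HSC fell as well, from 18% to 11.9% without pool 3 and to 11.3% without pool 5. The 7 HSC genes were Adamtsl5, Timp3, Adamts1, Adamts6, Mmp17, Adamts12 and Mmp15. The 2 genes higher in GMP were Mmp19 (17.47, 16.02, 19.5 and 17.23 CPM) and Mmp28 (10.46, 12.8, 6.903 and 16.23 CPM). Mmp19 was higher still in MSC (12.32 to 48.64 CPM, log2 2.14, edgeR adjusted p = 3.41e-10) and overlapped GMP in Myeloid (12.6 to 21.94 CPM). Mmp28, epilysin, shares exonic bases with an expressed gene of the opposite strand, and Mmp19 shares 789 with Tmem198b.

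Neutrophil collagenase and gelatinase counts in CLP came from 1 library. Control CLP pool 1 held 81.75 CPM of Mmp8 and 77.19 CPM of Mmp9, and the other 3 libraries held 0 to 3.134 CPM of each. The neutrophil markers summed to 9776 CPM in that library and to 5491, 6923 and 7301 CPM in the others. The part of neutrophil RNA in this value was not tested. In the test of CLP, Mmp8 was at 0.15 and Mmp9 at 0.54 (log2, edgeR adjusted p = 0.986 and 0.693). In batch A alone, which holds no Myeloid library, they were called higher in CLP, at 2.24 and 2.70 (adjusted p = 0.0371 and 0.0128). Without pool 1 they were at -3.89 and -2.62 (adjusted p = 0.0100 and 0.0163).

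Summed over families and divided by exon length, MSC held 488.1 ± 117 CPM per kilobase of MMP, 267.3 ± 123 of ADAMTS, 16.48 ± 3.61 of ADAMTSL and 270.5 ± 120 of TIMP transcripts (SD, n = 6). Myeloid held 1718 ± 547 of MMP, 15.51 ± 1.37 of ADAMTS, 1.916 ± 1.42 of ADAMTSL and 54.76 ± 10.5 of TIMP transcripts. The TIMP sum was 0.2871 to 0.6833 of the MMP sum in MSC, 0.8272 to 1.138 in HSC, 0.2023 to 0.4525 in MEP, 0.0833 to 0.3276 in CLP, 0.1331 to 0.2584 in GMP, 0.0249 to 0.04137 in Myeloid and 0.02922 to 0.0358 in WBM. HSC lay above and Myeloid and WBM below all others, while MSC overlapped MEP and CLP. They compare RNA levels and not the amounts of protein.

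**Figure D3:**
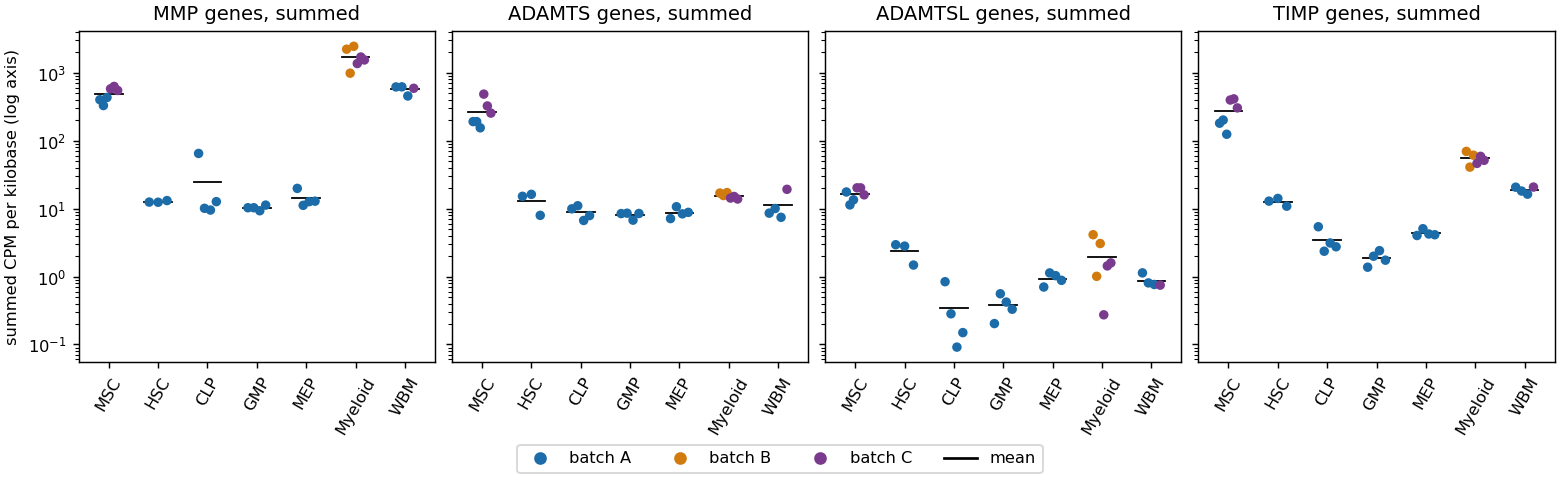
Summed CPM per kilobase of each family in each control library (1 point per library, coloured by batch, line at the mean) on a log axis. MSC and Myeloid stand above the progenitors for MMP and TIMP sums, and MSC alone is far above all others for ADAMTS and ADAMTSL sums.

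Sorted MSC were also set against unsorted marrow, to see what sorting enriched. Against WBM, 23 of 34 tested members were higher in MSC and 4 were lower, where 23.1% and 26.1% of all genes were (edgeR with batch as a term). The 4 lower genes were Mmp8 (log2 -5.16), Mmp9 (-4.72), Mmp25 (-5.16) and Adamts13 (-2.72), the same 4 that stood above every other sorted library in Myeloid. In WBM, Mmp8 held 614 to 1034 CPM and Mmp9 533.9 to 1030 CPM, while Mmp13 held at most 6.029 CPM. Adamts13 in WBM was 14.54, 20.58 and 16.15 CPM in batch A and 68.3 CPM in the batch C library.

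Several of these genes lie side by side on the genome. The Mmp cluster on chromosome 9 (7272514 to 7699585 on GRCm38, GENCODE M21) holds 10 members in 427072 bases with no other coding gene between neighbours. Mmp13, at its start, was the stromal collagenase and Mmp8, further along, the Myeloid one, while Mmp12 reached 18.48 CPM at most in MSC. The other 7 genes of the cluster (Mmp1a, Mmp1b, Mmp3, Mmp7, Mmp10, Mmp20 and Mmp27) had means under 2 CPM in every population (highest 1.618, Mmp27 in Myeloid). Adamts1 and Adamts5 are adjacent on chromosome 16, 53059 bases apart, and both peaked in MSC. Adamts15 and Adamts8 are 20109 bases apart on chromosome 9. Both had their highest mean in MSC, but at 28.7 CPM for Adamts15 and 1.83 CPM for Adamts8. The Adamts8 mean came from a single MSC library of batch C at 10.98 CPM, and the other control MSC libraries were at 0 CPM.

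Batch moved the stromal levels. Of the 24 members with a mean of at least 10 CPM in control MSC, 12 had every batch C library above every batch A library, which held for 21.1% of all 9885 genes of that level. Timp2 was one, since batch A held 347.6, 356.1 and 289.6 CPM, against 636.7, 665.9 and 682 for batch C. In 2 members the batch C libraries were all below the batch A libraries, and the share of all genes with this order was not computed. Depth differed too, as control MSC libraries of batch A held 3753007, 1431006 and 321860 counts. Those of batch C held 15318825, 18445347 and 17961447 counts. The cause of the batch difference was not tested, and batch is therefore a term in each MSC fit.

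The effect of the antibody was tested within each sorted population, to ask whether blocking PAPP-A changed these genes. No member passed the edgeR threshold in any population. In simulated counts for MSC the same test recovered 10% of changes of 1 on the log2 scale and 49% of changes of 2. Over the 6 populations these shares ran from 6% (CLP) to 62% (MEP) and from 42% (CLP) to 91% (MEP). A lack of calls therefore does not show that these genes were unchanged. Tested and called were 36 and 0 members in MSC (0.0313% of all 15984 genes called), 23 and 0 in HSC (0.0069%), 16 and 0 in CLP (0.0%), 18 and 0 in GMP (0.0%), 16 and 0 in MEP (0.0%) and 28 and 0 in Myeloid (0.0%). An unadjusted p under 0.05 was reached by 5 members in MSC, 1 in MEP, 1 in Myeloid and 0 in HSC, CLP and GMP. Among all genes it was reached by 676 of 15984 in MSC, 444 of 13307 in MEP, 437 of 16803 in Myeloid, 1156 of 14494 in HSC, 29 of 12520 in CLP and 195 of 15334 in GMP. DESeq2 also called 0 members in all 6 populations. The median log2 difference of the members was -0.11 in MSC against -0.03 for all genes, and 0.17 in Myeloid against -0.03. CPM values below are on the scale of each comparison and differ slightly from those above.

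Mmp14 had the smallest p-value among members in MSC. The 3 control libraries of batch A held 222.1, 205.1 and 154 CPM, above the treated one at 95.67. Those of batch C held 401.6, 412.1 and 345 CPM, above the treated ones at 337, 274.5 and 211.8. The groups did not overlap within either batch, and overlapped when batches were pooled. The share of all genes with such a separation was not computed. The difference was -0.65 (log2, SE 0.195, edgeR adjusted p = 0.7955) and did not pass the threshold. In batch C alone it was -0.50, and without libraries under 1000000 counts -0.49.

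Timp1 came next. Control libraries of batch A held 61.5, 76.64 and 34.21 CPM, and those of batch C 153.2, 164.4 and 78.39. The treated library of batch A held 16.56 CPM, which is 9 counts, and those of batch C 63.6, 85.47 and 105.7 CPM. The groups overlapped in batch C. Timp1 was at -0.89 (log2, SE 0.287, edgeR adjusted p = 0.843), and at -0.64 in batch C alone. Of 8 osteoblast markers, such as Bglap and Ibsp, 7 had a negative difference in treated MSC and 1 fell past the threshold (Ibsp). Their sum in batch C was 7556, 9144 and 8549 CPM in control and 4077, 4007 and 4543 CPM in treated libraries. In batch A the treated library (12310 CPM) lay within the controls (7274 to 24570 CPM). Their part in the Mmp14 and Timp1 values was not tested.

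The other 3 members under an unadjusted p of 0.05 had positive differences in treated MSC. Adamts13 held 0 to 6.565 CPM in controls, and the 4 treated values were 22.08, 14.38, 4.26 and 11.62 (log2 1.52, SE 0.619, edgeR adjusted p = 0.999). Adamts9 held 52.96 to 93.83 CPM in controls, against treated values of 93.83, 158.8, 92.92 and 72.17 (log2 0.53, SE 0.227, adjusted p = 0.999). Mmp8 differed by 1.11 (log2, SE 0.468, adjusted p = 0.999), with overlapping groups in batch C. Mmp8 and the neutrophil markers were highest in the same MSC libraries, the shallow control pool 7 (136.9 CPM of Mmp8, marker sum 7590) and treated pool 8 (152.7 CPM, marker sum 12180). The part of neutrophil RNA in the Mmp8 difference was not tested.

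Apart from Mmp14, the 10 members of highest level in control MSC had differences under 2 standard errors. Mmp13 was at 489.8, 351.6 and 456.2 CPM in batch A controls against 581.4 under treatment, and at 685.6, 828.3 and 721 in batch C controls against 724.1, 1044 and 899.9 (log2 0.31, SE 0.169, edgeR adjusted p = 0.999). Adamts1 was at 0.06 (SE 0.450) and turned negative without treated pool 16 (-0.45), control pool 17 (-0.07) or control pool 19 (-0.17). Adamts2 was at -0.08 (SE 0.166), Timp2 at -0.27 (SE 0.168), Timp3 at -0.41 (SE 0.225), Mmp23 at -0.29 (SE 0.182), Adamts5 at -0.33 (SE 0.208), Adamts10 at -0.28 (SE 0.206) and Mmp2 at -0.15 (SE 0.320), each with adjusted p = 0.999. Over the 4 families, 17 members had a positive and 19 a negative difference in MSC.

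**Figure D4:**
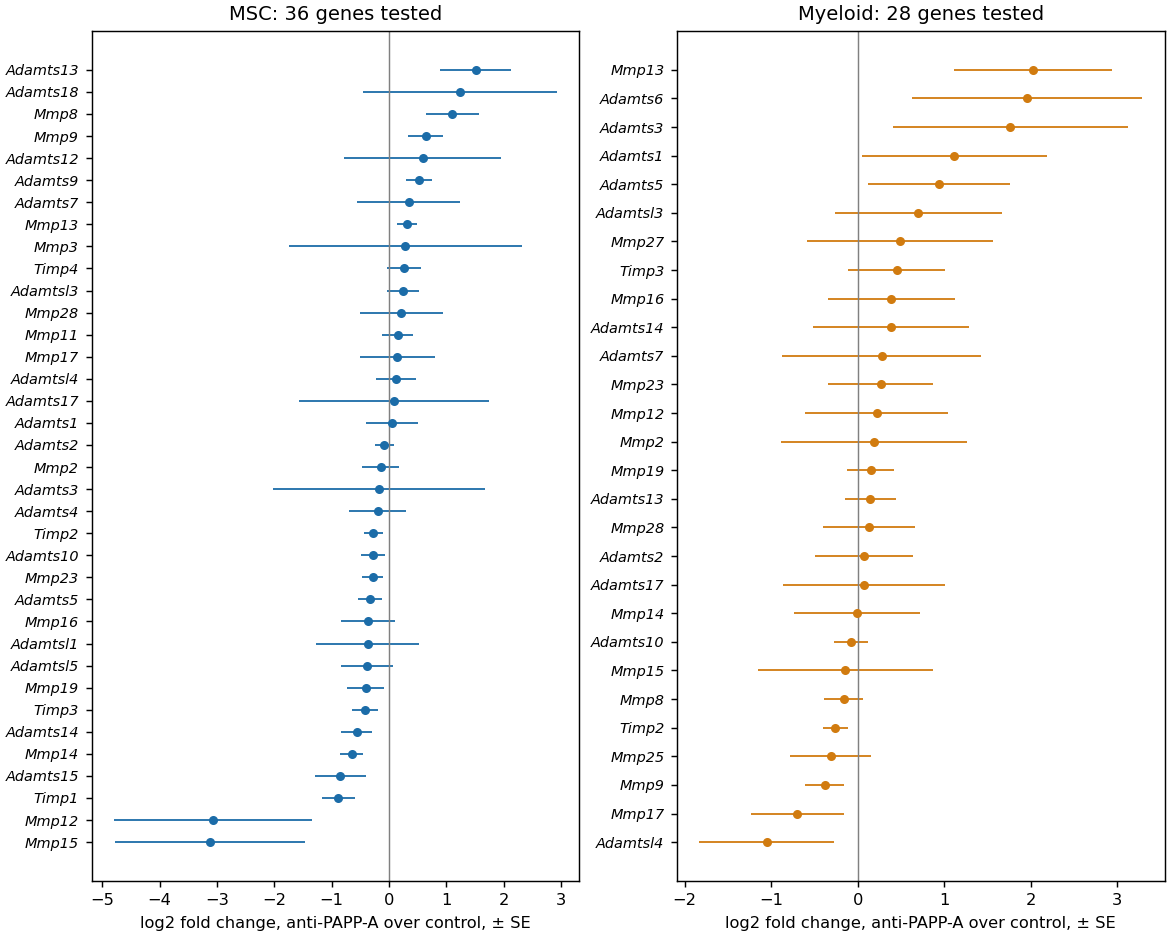
Log2 fold change of treated over control with its standard error for each member tested in MSC (36 genes, left) and in Myeloid (28 genes, right), ordered by size. In MSC, Mmp14 and Timp1, the members with the smallest p, lie below 0, and Adamts13, Adamts9 and Mmp8 lie above it. No gene shown passed the adjusted threshold.

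In Myeloid cells Mmp13 had the smallest p. Its counts were 0 to 19 in control and 4 to 72 in treated libraries, and in batch C the treated libraries (3.047, 1.606 and 4.342 CPM) were above the controls (1.048, 0.2047 and 0.6047 CPM). The difference was 2.02 (log2, SE 0.916, edgeR adjusted p = 0.995). Stromal markers moved with it in batch C, at 114.8, 83.16 and 124.2 CPM in treated and 68.09, 8.851 and 34.87 CPM in control libraries, and at 2.476 CPM or less in batch B. The part of stromal RNA in the Mmp13 value was not tested.

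The granule enzymes of Myeloid cells overlapped between groups. Mmp9 was at 3506, 1790 and 3439 CPM in batch B controls against 1548, 1686 and 3150 under treatment, and at 1395, 1389 and 1807 in batch C controls against 1109, 1105 and 1477 (log2 -0.38, SE 0.220, edgeR adjusted p = 0.995). Timp2 ran from 124.5 to 188.1 CPM in controls and from 99.22 to 153.3 CPM under treatment (log2 -0.26, SE 0.149, adjusted p = 0.995). Mmp8 was at -0.16 (SE 0.227), Mmp25 at -0.31 (SE 0.468) and Adamts13 at 0.15 (SE 0.294). Of the 10 neutrophil markers, 9 also had a negative difference, with a median of -0.31 and 0 called. Their sum in batch C was 128600, 137000 and 154500 CPM in control and 99490, 109300 and 124800 CPM in treated libraries, with no overlap, and in batch B the groups overlapped. Their part in the Mmp8, Mmp9 and Mmp25 values was not tested. Mmp16 was at 0.39 (SE 0.733), with a batch split: treated libraries of batch C held 107.7, 50.62 and 82.44 CPM against 36, 33.21 and 19.15 CPM, while in batch B alone the difference was -0.64. With 1 library left out, Mmp16 ran from 0.01 to 1.22, Adamtsl4 from -2.10 to -0.77 and Mmp13 from 1.59 to 2.76. Adamts10 at -0.08, Mmp19 at 0.15, Adamtsl4 at -1.05 and Mmp17 at -0.70 also did not pass.

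**Figure D5:**
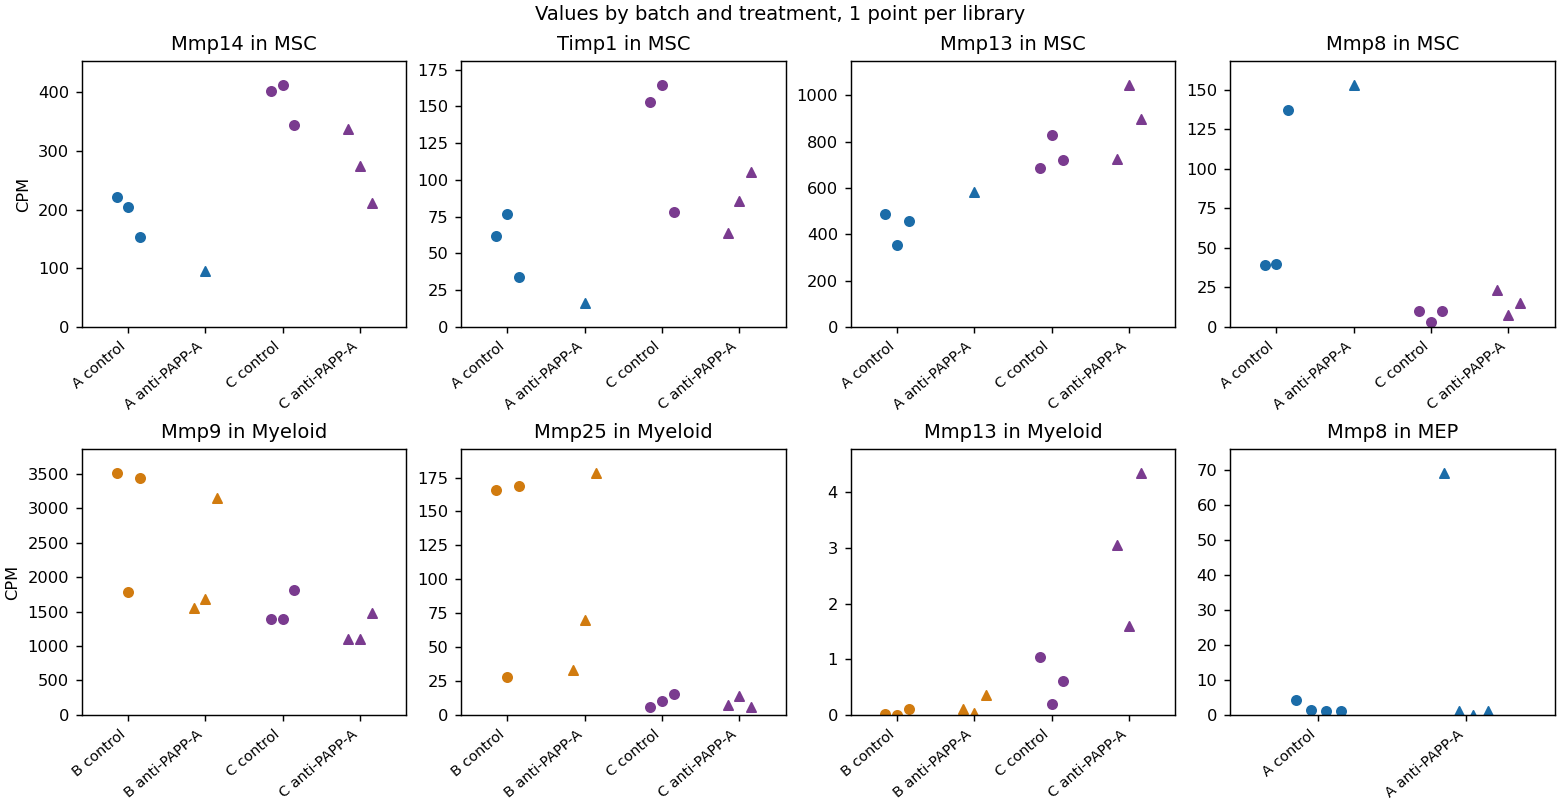
CPM (linear axes from 0) of single genes in each library of MSC, Myeloid or MEP, by batch (colour) and treatment (circles control, triangles anti-PAPP-A). Treated libraries of Mmp14 in MSC lie below the controls of their batch, Mmp13 in Myeloid lies under 5 CPM in all libraries, and Mmp8 in MEP is high in 1 treated library at 69.01 CPM.

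In the progenitors the values were low and often rested on 1 library. In HSC, Mmp19 held 3.718, 4.286 and 3.273 CPM in controls, against treated values of 6.666, 17.75, 0 and 2.944 (log2 1.13, SE 0.624, edgeR adjusted p = 0.656). Without treated pool 4, the highest, Mmp19 was at 0.23. Adamtsl4 held 2.44, 2.927 and 0.9547 CPM in HSC controls, and 3 of 4 treated libraries had 0 counts (log2 -1.72, adjusted p = 0.668). Adamts6 was at -0.89 in HSC (adjusted p = 0.679). In CLP, Adamts13 was at -1.15, Mmp15 at 1.14 and Adamts10 at 0.33, and in GMP Mmp12 was at 1.15, Mmp17 at 0.60 and Mmp8 at 0.52, each with an edgeR adjusted p = 1.0. Adamts13 in CLP was 37.17 CPM in control pool 1 and 3.141 to 11.42 CPM in the other controls, and without that pool its difference was 0.006. Mmp15 in CLP fell to 0.15 without treated pool 2.

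In MEP, Adamtsl5 held 3.202, 5.423, 5.591 and 3.173 CPM in controls and 1.944, 3.099, 2.485 and 1.821 CPM in treated libraries. The groups did not overlap, and the difference was -0.87 (log2, SE 0.303, edgeR adjusted p = 0.9995). Adamtsl5 had the smallest p among members in MEP, and the share of all genes without overlap was not computed. Mmp8 and Mmp9 in MEP rested on treated pool 2, with 69.01 and 71.24 CPM against 0 to 1.754 CPM in the other treated libraries. Neutrophil markers summed to 7510 CPM in that library and to 668.1 to 1427 CPM in the other MEP libraries. The differences of Mmp8 and Mmp9 were 3.16 and 2.86 (adjusted p = 0.9995) and turned to -1.27 and -1.21 without it.

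Genes around these families were described by the same tests. Of 18 other metzincin genes, such as the ADAM sheddases, Bmp1 and Pappa itself, 16 were measured across populations and 10 were higher and 1 lower in MSC, where 28.7% and 20.1% of all tested genes were. Of 19 genes for regulators of metalloproteases, which include the anchored inhibitor Reck, the proprotein convertase Furin and the plasminogen activators, 17 were measured and 11 were higher and 1 lower in MSC. That list holds Lcn2, also a neutrophil marker, and the substrates hold Col1a1, also an osteoblast marker. Of 23 matrix substrates, such as collagens, aggrecan and versican, 21 were measured and 20 were higher in MSC and 0 lower. In treated MSC 0 of the 15 tested metzincins, 0 of the 15 tested regulators and 0 of the 21 tested substrates passed the edgeR threshold. Unadjusted p-values under 0.05 numbered 2, 3 and 3, against 676 of all 15984 genes.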

How the data were processed

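RNA from 57 libraries was sequenced with a directional kit, per the labels' protocols. The deposited values are estimated counts per gene and library (whole numbers, not scaled), which the authors made with Salmon on mm10 after FastQC 0.11.5, per the submitters' processing notes. Annotation release, strand setting and the version of Salmon: not given in the sources used here. Repeated lines of a gene were identical (0 of 3210924 gene and sample pairs differed) and were used once.

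Genes were kept by filterByExpr, scaled by TMM and tested with edgeR 4.0.16 (robust quasi-likelihood, Benjamini-Hochberg 0.05 over all genes tested), with batch as a term where a comparison held more than 1 batch. Libraries of 1 pool counted as separate samples across populations. Scripts were tested on simulated data. Alternatives were DESeq2 1.42.0, its size factors in edgeR, total counts, no low-count filter, Ensembl genes only, no libraries under 1000000 counts, no batch term, single batches, mouse pool as a replicate block in limma 3.58.1 (correlation 0.0681 across populations, -0.0238 for MSC against WBM), and each library left out. By the labels, a pool number marks the same mice across populations, never a control and a treated library. No 2 libraries held identical counts. Positions and exon lengths are from GENCODE M21, and promoters from RefSeq (GRCm38.p6, 36 of 51 genes matched by symbol).

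Named by rule were members of at least 10 CPM in any population, the 4 highest per kilobase in each, members called in MSC or Myeloid at 10 CPM, the 3 with the smallest treatment p in each population and the 10 highest in MSC and Myeloid. Others (Adamts9 and Mmp8 in treated MSC, the low members of the Mmp cluster, Adamts8, and HSC genes under 10 CPM) were named after their values were seen. Genes and lists were chosen with earlier results of these data known.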

Additional observations from a re-analysis of the deposited data

Results flagged for a closer look

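In 15 of the 91 groups of 4 or 6 libraries that were looked at, 1 library lay farther from its nearest neighbour than Dixon's 95% value allows. For normally distributed values of 1 population, chance gives about 1 in 20. Some of these groups hold zeros or mix batches, and the genes share libraries. The count of 15 therefore does not measure an excess over chance.

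Neutrophil enzymes account for 7 of the 15. In control CLP, pool 1 held 81.75 CPM of Mmp8 and 77.19 CPM of Mmp9, and the other libraries at most 3.134 CPM of each. In treated MEP, pool 2 held 69.01 CPM of Mmp8 and 71.24 CPM of Mmp9, against at most 1.252 and 1.754 CPM. Mmp8 was also apart in control MEP pool 1 (4.323 CPM, others at most 1.328) and in treated GMP pool 2 (2.999 CPM, others at most 1.68). In treated Myeloid cells pool 14 held 3150 CPM of Mmp9, with the others between 1105 and 1686.

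Treated Myeloid pool 14 stood apart for Mmp25 too, at 178.1 CPM against 5.548 to 69.81, and treated Myeloid pool 20 for Mmp19, at 28.59 CPM against 7.856 to 13.92. Control MSC pool 15 held 1210 CPM of Adamts1, above 268 to 617.5 in the others. Low values stood apart for Adamts10 in control GMP pool 5 (35.39 CPM, others 49.25 to 50.57) and Adamts3 in control MEP pool 5 (11.68 CPM, others 17.64 to 18.12). Adamts13 in WBM was 68.3 CPM in pool 15, the only batch C library there, against 14.54 to 20.58. Adamtsl4 in treated HSC pool 8 was 1.472 CPM (12 counts), with the other 3 at 0, and Mmp15 in treated CLP pool 2 was 12.15 CPM (43 counts), with the others between 1.731 and 2.911.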

How the results depend on the processing

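Across the alternatives, the values of the members named by rule were set against the main fit. Of these, 576 of 591 treatment values and 1829 of 1842 population values kept their direction and their side of the threshold. A value with no adjusted p counted as kept if its direction held. Members called under treatment stayed at 0 except without the low-count filter, which gave 1 in MSC (Mmp8, edgeR adjusted p = 0.0290) and 1 in HSC (Mmp13, adjusted p = 2.55e-04). Mmp8 in MSC and Mmp13 in HSC were not named by rule for treatment and are not among the 591 values. Without that filter 0.204% of all genes were called in MSC and 0.64% in HSC. Mmp13 in HSC had counts in a single treated library. Treatment cannot be paired, and across populations the mouse pool as a replicate block called 29 members for MSC, 11 for HSC, 5 for CLP, 19 for GMP, 21 for MEP, 21 for Myeloid and 29 for MSC against WBM, and turned Mmp8 and Mmp9 in CLP to -2.09 and -1.38 on the log2 scale. Shares of all genes under the replicate block are not given here, so these counts are not set against the background. Batch A alone, which has no Myeloid libraries, called 15 members in CLP instead of 7, and DESeq2 called 25 in MEP instead of 15. The shares of all tested genes rose as well, from 12.6% to 28.4% in CLP and from 25.2% to 31.4% in MEP. Leaving out 1 library gave 6 to 14 calls in HSC. The 6 came without control HSC pool 5, where 11.3% of all genes were called, against 18% in the main fit. Without the batch term Adamts2 and Timp2 in treated MSC were at 0.18 and 0.011 on the log2 scale. In Myeloid Mmp8 was at 0.022 in batch C alone, and Adamts13, Mmp16 and Mmp19 at -0.17, -0.64 and -0.11 in batch B alone. Timp2 in Myeloid was at -1.55 against MSC alone, another reference. With 1 library left out, Adamts1 in MSC ran from -0.45 to 0.37, Adamts13 in CLP from -1.66 to 0.006, Mmp8 and Mmp9 in MEP from -1.27 to 3.83 and from -1.21 to 3.84, and Adamts13, Adamts10 and Mmp19 in Myeloid from -0.075 to 0.38, from -0.18 to 0.019 and from -0.13 to 0.25. Mmp8 and Mmp9 against the other populations in CLP ran from -3.89 to 0.58 and from -2.62 to 0.95. Other causes were not tested. Counts under 10 per library, as in HSC pool 6 or MSC pool 7, limit what could be seen for low members.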
